A study of Mus musculus with 80 samples.

Results

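The genes described here are the chromosomal neighbours of Mmp2, the mouse gene of matrix metalloproteinase 2 on chromosome 8. They were taken from a list of 51 genes that lie within about 5 Mb of Mmp2, and 48 of the 51 had a row in the table of raw counts, which holds 14688 genes in all. Nod2, Sall1 and Ccl17 had none and were not analysed here. Of the 48, 14 lie at lower and 34 at higher coordinates than Mmp2. The rule uses position and no measured value.

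RNA was sequenced from the tibial growth plate, the frontal bone (calvaria) and the femoral cortical bone, freed of marrow by washing, of female mice at P21. There were 4 genotypes, all labelled C57BL/6J. WT mice carried both metalloproteinases, MMP2-/- mice lacked MMP2, MMP9-/- mice lacked MMP9 (gelatinase B, encoded on chromosome 2) and MMPdKO mice lacked both. The growth plate gave 7 WT, 6 MMP2-/-, 7 MMP9-/- and 7 MMPdKO libraries, the calvaria 7 of each, and the cortical bone 7, 5, 7 and 6 in the same order. According to the labels, WT and MMP9-/- mice were bought from a breeder, MMP2-/- mice came from another laboratory, and MMPdKO mice were bred from the single knockouts through double heterozygotes. The deletions are present in all cells of the animal. The 80 libraries came from 33 mice (9 WT, 7 MMP2-/-, 9 MMP9-/- and 8 MMPdKO), of which 17 gave all 3 tissues.

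MMP2 is a secreted gelatinase that cleaves denatured collagen and other components of the bone and cartilage matrix. Genes that lie near each other on a chromosome are mostly inherited together, so that mice bred to be homozygous for a knockout allele are usually also homozygous for the stretch of chromosome around it. In both MMP2-/- and MMPdKO mice that stretch comes down from the MMP2-/- stock, apart from what recombination has exchanged, whereas WT and MMP9-/- mice have it from another source. The libraries give counts and no genotypes of the neighbouring genes. An effect of the absence of MMP2 and an effect of alleles linked to the knockout can therefore not be told apart in this design. Other differences between the mouse stocks, which came from different sources, cannot be told apart from these either.

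The stretch spanned by the list runs from Cnep1r1 to Got2 (chr8:88118769-95888547, GRCm38), with Mmp2 itself at chr8:92827291-92853420 on the plus strand. Members ranged widely in function. They included the metallothionein genes Mt1, Mt2 and Mt3, whose products bind zinc and copper, the Iroquois homeobox genes Irx3 and Irx5, the RNA demethylase gene Fto, subunits of RNA polymerase II (Polr2c) and of the CCR4-NOT deadenylase complex (Cnot1), ciliary genes such as Bbs2 and Rpgrip1l, and chemokine genes such as Ccl22 and Cx3cl1.

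The starts of Mt2, Mt1 and Lpcat2 are shown because the first pair was higher, and the gene next to Mmp2 lower, in libraries without MMP2. The stretches are the 250 bases before the RefSeq start on the plus strand (GRCm38.p6), at chr8:94172368-94172617, chr8:94178839-94179088 and chr8:92855083-92855332. Capitals mark the core of the metal response element, searched as TGCACNC and TGCGCNC on both strands.
Mt2: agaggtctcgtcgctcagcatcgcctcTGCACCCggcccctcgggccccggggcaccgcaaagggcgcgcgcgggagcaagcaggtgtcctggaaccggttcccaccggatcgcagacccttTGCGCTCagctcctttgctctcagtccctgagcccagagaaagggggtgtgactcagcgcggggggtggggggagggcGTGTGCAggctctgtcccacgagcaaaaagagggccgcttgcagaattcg
Mt1: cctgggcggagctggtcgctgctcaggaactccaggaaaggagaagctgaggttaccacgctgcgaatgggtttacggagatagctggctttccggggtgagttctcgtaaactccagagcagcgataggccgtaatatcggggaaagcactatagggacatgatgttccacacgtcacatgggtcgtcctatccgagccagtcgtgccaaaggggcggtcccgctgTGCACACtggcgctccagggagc
Lpcat2: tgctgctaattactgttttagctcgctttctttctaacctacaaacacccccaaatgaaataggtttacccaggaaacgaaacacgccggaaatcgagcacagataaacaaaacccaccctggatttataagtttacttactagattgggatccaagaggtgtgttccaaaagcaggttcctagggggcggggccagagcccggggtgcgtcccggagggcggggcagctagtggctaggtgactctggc
The Mt2 stretch held 3 such cores, the Mt1 stretch 1 and the Lpcat2 stretch 0. That of the paralog Mt3, not shown, also held 0. The Mt1 stretch runs into the gene as annotated (from chr8:94179082), and bases past each stretch were not searched. At least 1 core stood in 21.41% of 32841 mouse promoters of this length and at least 3 stood in 1.264% of them. Among the 45 listed neighbours with a promoter in the RefSeq table, 14 (31.1%) held at least 1, and 3 held at least 3. A match of letters is a description of the sequence and no evidence of binding.

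Libraries held 114408 to 1921698 counts, with medians of 720462 for growth plates, 680172 for calvariae and 583691 for cortical bones. A cortical bone library of an MMP9-/- mouse (replicate 1) was the shallowest. The summed CPM (counts scaled to the library size) of 8 chondrocyte genes was 2204 to 66105 in growth plates against 199 to 1469 in calvariae, while cortical bones, with 342 to 9164, overlapped the lowest growth plates. The 3 skull genes summed to 54.8 to 169 in calvariae and to at most 27.2 elsewhere. No gene of 13 cell type marker lists passed the test for the loss of MMP2 in any tissue. The 6 erythroid markers nevertheless had median log2 fold changes of -0.52, -0.32 and -0.36 in growth plate, calvaria and cortical bone, and 3, 5 and 0 of them an unadjusted p under 0.05. In MMP2-/- against WT the medians of this list were -0.88, -0.68 and -0.76 (3, 6 and 5 of 6 at an unadjusted p under 0.05), and in MMPdKO against MMP9-/- they were -0.13, -0.01 and 0.07 (0 in each tissue). The part of these cells in the results was not tested.

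As a check of the labels, Mmp2 was measured in every library. In the growth plate it stood at 4.07 to 50.7 CPM (median 26.9) in the 13 libraries of MMP2-/- and MMPdKO mice and at 278.8 to 592 CPM (median 455) in the 14 others. Calvaria ranges were 6.62 to 32.4 and 369 to 968 CPM, and cortical bone ranges 9.34 to 37.2 and 227 to 666 CPM. Mmp9 stood at 194 to 980 CPM in MMP9-/- and MMPdKO growth plates and at 1544 to 3950 CPM in the others, at 78.3 to 171 against 650 to 1382 CPM for calvariae, and at 84.3 to 426 against 713 to 1868 CPM for cortical bones. Neither gene showed an overlap between libraries with and without its knockout in any tissue, and every library fitted its label.

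To ask whether linked genes changed in the knockout strain, the MMP2-/- and MMPdKO libraries were compared with the WT and MMP9-/- libraries of the same tissue, with equal weight for both MMP9 backgrounds. A gene was tested in a tissue if it had at least 15 counts in at least 1 library, and a change was called at a Benjamini-Hochberg adjusted p under 0.05 over all genes tested. Of the 48 neighbours, 41 growth plate genes, 44 calvaria genes and 37 cortical bone genes could be tested, and 36 were tested in all 3. Ccl22, Nlrc5, Pllp and Slc6a2 were tested in none, and their highest counts in any library were 6, 13, 7 and 14. In the average of the 3 tissue effects, 5 neighbours rose (Ciapin1, Mt1, Mt2, Kifc3 and Usb1) and 2 fell (Lpcat2 and Cpne2). These were 7 of 44 tested neighbours, while 0.292% of all genes tested were called. By direction, 0.0973% of all genes were called higher and 0.195% lower. Leaving out 1 mouse at a time gave 3 to 10 called neighbours, and 3 or 4 without any of 3 MMP2-/-, 1 MMP9-/-, 3 MMPdKO and 1 WT mice.

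**Figure D1:**
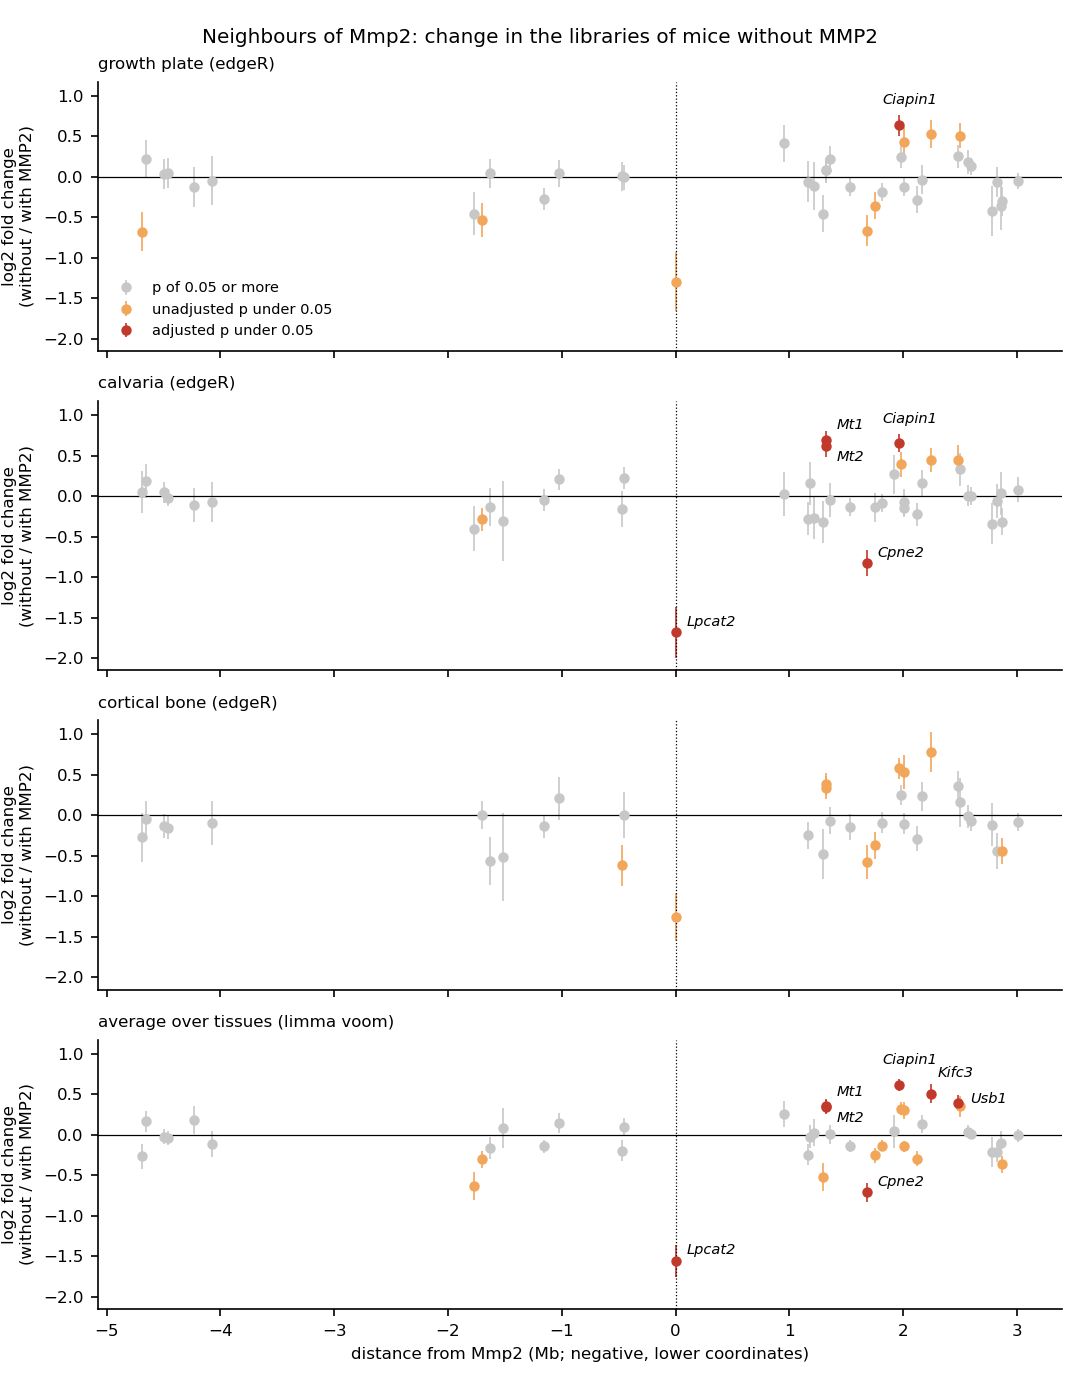
Log2 fold change (libraries without MMP2 over libraries with MMP2, whiskers SE) of each tested neighbour against its distance from Mmp2 in Mb, negative at lower coordinates, in each tissue and in the average of the tissues. The called genes, in red, lie at 0.0019 to 2.4789 Mb on the side of higher coordinates, and none of the 14 neighbours at lower coordinates was called.

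Lpcat2 (chr8:92855339-92919279, plus strand) starts 0.0019 Mb past the end of Mmp2 and encodes an acyltransferase that makes phosphatidylcholine and the lipid mediator PAF. In the calvaria it stood at 7.73 to 23.3 CPM (median 12.2) in the 14 libraries with MMP2 and at 0 to 8.79 CPM (median 2.64) in the 14 without. The median was also lower in the growth plate (3.99 against 11.7 CPM) and in the cortical bone (7.15 against 13.7 CPM), with overlap between the groups in every tissue. Its log2 fold change was -1.68 (SE 0.317, adjusted p = 0.00848) in the calvaria. Growth plate (-1.29, SE 0.367, adjusted p = 0.602) and cortical bone values (-1.25, SE 0.296, adjusted p = 0.354) did not pass. The average over tissues was -1.55 (SE 0.196, adjusted p = 2.84e-08), and it passed in each of 33 fits that left out 1 mouse. Counts of this gene were low, with at most 29 in a library. It reached the minimum of 15 counts only in libraries with MMP2, since the highest count without MMP2 was 14 for growth plates, 11 for calvariae and 10 for cortical bones, so that it was tested through the group where it is high. Without that minimum the calvaria call was kept.

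Ciapin1 (chr8:94819804-94838358, minus strand), whose product anamorsin serves the assembly of cytosolic iron-sulfur proteins, moved the other way. In the calvaria it stood at 51.6 to 125 CPM (median 91.2) without MMP2 and at 43.6 to 72.6 CPM (median 57) with it, and 12 of 14 libraries without MMP2 lay above every library with MMP2. Growth plate medians were 98.9 and 60.2 CPM, and cortical bone medians were 107 and 68.7 CPM. The log2 fold changes were close to each other, at 0.63 (SE 0.128, adjusted p = 0.0414) in the growth plate, 0.65 (SE 0.111, adjusted p = 0.00217) in the calvaria and 0.58 (SE 0.130, adjusted p = 0.253) in the cortical bone. Their average was 0.61 (SE 0.0701, adjusted p = 1.43e-09). In the growth plate Ciapin1 was the only one of 41 neighbours called (0.0574% of all genes were), and that call depended on single libraries. It was kept without WT replicate 2, 4 or 7, MMP2-/- replicate 4, MMP9-/- replicate 6 or MMPdKO replicate 2. Leaving out any one of the other 21 libraries lost it. Over all 27 such fits its adjusted p was 0.00738 to 0.129. Ciapin1 and its neighbour Coq9 overlap head to head at chr8:94838321-94838358. That overlap lies at the starts of both genes, while the libraries tag transcript 3′ ends. Whether counting used the strand is not stated, so any reads there could belong to either gene.

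Cpne2 (chr8:94532990-94570531, plus strand) encodes a copine, a protein that binds membranes when calcium is present. Calvaria libraries without MMP2 had 7.31 to 24.4 CPM (median 17.8) and those with MMP2 15.5 to 54.1 CPM (median 29.2). Medians were 17.4 and 24.6 CPM in the growth plate and 19.1 and 33.9 CPM in the cortical bone, where the shallowest library, of an MMP9-/- mouse, had no count. Cpne2 fell by 0.83 on the log2 scale in the calvaria (SE 0.157, adjusted p = 0.00896) and, with -0.71, in the average over tissues (SE 0.113, adjusted p = 2.55e-05). Its values of -0.67 (SE 0.191, adjusted p = 0.602) in the growth plate and -0.58 (SE 0.211, adjusted p = 0.990) in the cortical bone did not pass.

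**Figure D2:**
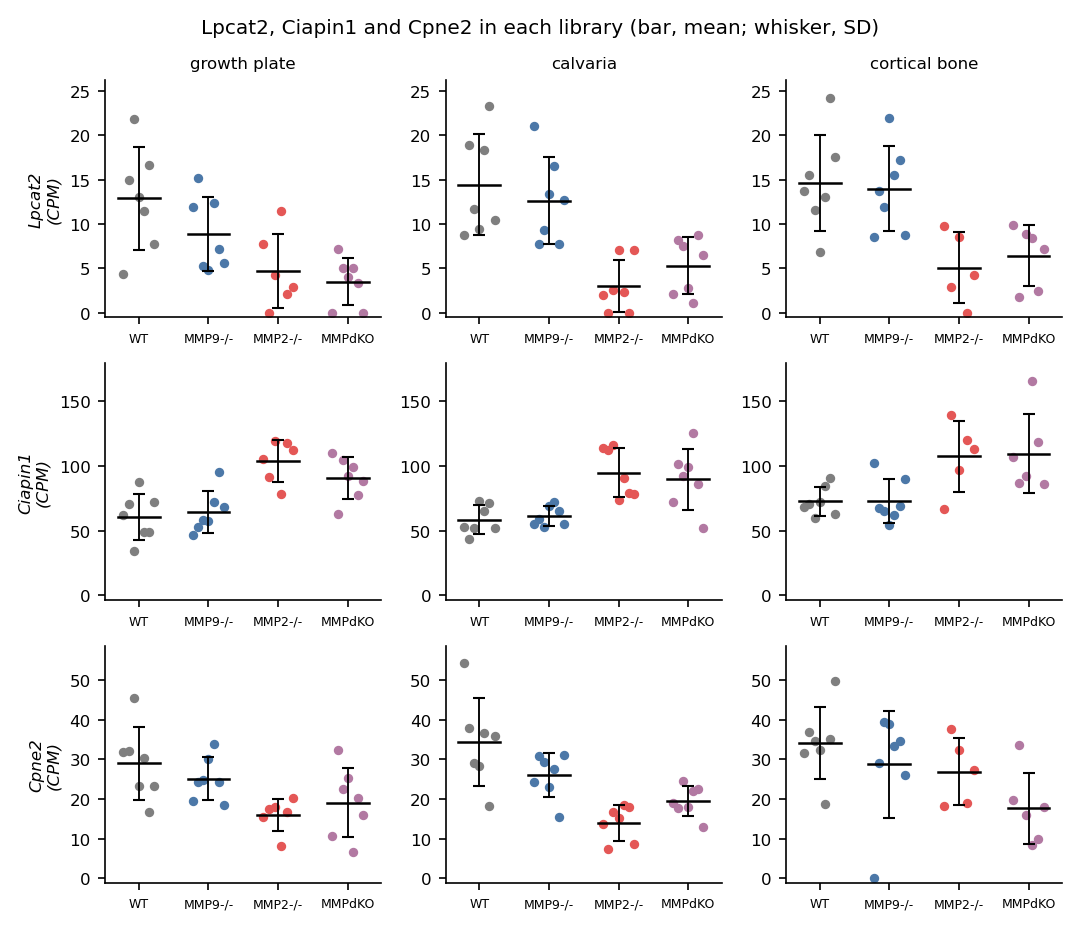
Level (CPM) of Lpcat2, Ciapin1 and Cpne2 in every library by tissue and genotype, with the mean (bar) and SD (whisker). Lpcat2 and Cpne2 had lower and Ciapin1 higher medians in MMP2-/- and MMPdKO than in WT and MMP9-/- libraries in all 3 tissues.

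The metallothionein genes Mt1 (chr8:94179082-94180327) and Mt2 (chr8:94172664-94173568) stand side by side on the plus strand and were the most abundant of the neighbours, with means of 460 and 315 CPM over all libraries. They are close paralogs, so that reads could be shared between them. In the calvaria Mt1 stood at 237 to 702 CPM (median 518) without MMP2 and at 243 to 427 CPM (median 296) with it, and 10 of 14 libraries without MMP2 exceeded all 14 others. Mt2 had medians of 388 CPM (149 to 502) and 232 CPM (154 to 347). Both rose in the calvaria, Mt1 by 0.70 (SE 0.112, adjusted p = 0.0016) and Mt2 by 0.62 (SE 0.129, adjusted p = 0.0343) on the log2 scale. The Mt2 call there was kept without 15 of the 28 libraries and lost without the other 13, namely WT replicates 1, 2 and 7, MMP2-/- replicates 3, 6 and 7, MMP9-/- replicates 1, 3 and 4, and MMPdKO replicates 1, 2, 3 and 5 (adjusted p of 0.000986 to 0.0816 over all 28). It was also lost in 5 of 10 other alternatives (adjusted p of 0.00521 to 0.0850).

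In the growth plate the same genes showed log2 fold changes of 0.08 (Mt1, SE 0.151) and 0.08 (Mt2, SE 0.144) without passing, and the medians of Mt2 were 289 CPM without and 303 CPM with MMP2. In the cortical bone the values were 0.34 (Mt1, SE 0.140) and 0.39 (Mt2, SE 0.138), each with an adjusted p of 0.990. There the WT and MMP9-/- groups also lay apart, with Mt1 at 339 ± 72.1 CPM (SD, n = 7) in WT, 497 ± 166 (n = 5) in MMP2-/-, 554 ± 119 (n = 7) in MMP9-/- and 608 ± 117 (n = 6) in MMPdKO libraries. The log2 fold change of Mt1 for the loss of MMP9 in that tissue was 0.50 (SE 0.142, unadjusted p = 0.00139), which did not pass after adjustment. The average over tissues was called for both (Mt1 0.36, SE 0.0808, adjusted p = 0.0222, and Mt2 0.34, SE 0.0821, adjusted p = 0.0355). The test for a difference between tissues called neither, with an unadjusted p of 0.026 for Mt1 and 0.0792 for Mt2, and 0 of 44 neighbours were called by it in limma (0% of all genes, and 2 neighbours at an unadjusted p under 0.05, against 2.54% of all genes). Mt3, the paralog best known from brain, did not pass in any tissue. Its average over tissues was -0.53 (adjusted p = 0.133), and its level over all libraries was 71.9 CPM.

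Kifc3 (chr8:95099828-95202812, minus strand), a kinesin that moves to the minus ends of microtubules, had medians of 53.6 CPM without and 38.2 CPM with MMP2 in the growth plate and of 43.7 and 33.3 CPM in the calvaria. In the cortical bone it stood at 8.83 to 92.6 CPM (median 57) without MMP2 and at 21.9 to 44.8 CPM (median 28.0) with it. There 8 of 11 libraries without MMP2 lay above all 14 others and 2 lay below them all. Usb1 (chr8:95332284-95347507, plus strand), which trims the end of the U6 spliceosomal RNA, had medians of 27.4 against 21.2, 24.7 against 17.3 and 27.2 against 22.6 CPM in growth plate, calvaria and cortical bone. Neither gene passed within a tissue. Both were called in the average over tissues, Kifc3 at 0.51 (SE 0.120) and Usb1 at 0.39 (SE 0.0925), each with an adjusted p of 0.0306. Of 33 fits that left out 1 mouse, 22 called Kifc3, 25 Usb1, 28 Mt1 and 16 Mt2, whereas all 33 called Lpcat2, Cpne2 and Ciapin1.

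**Figure D3:**
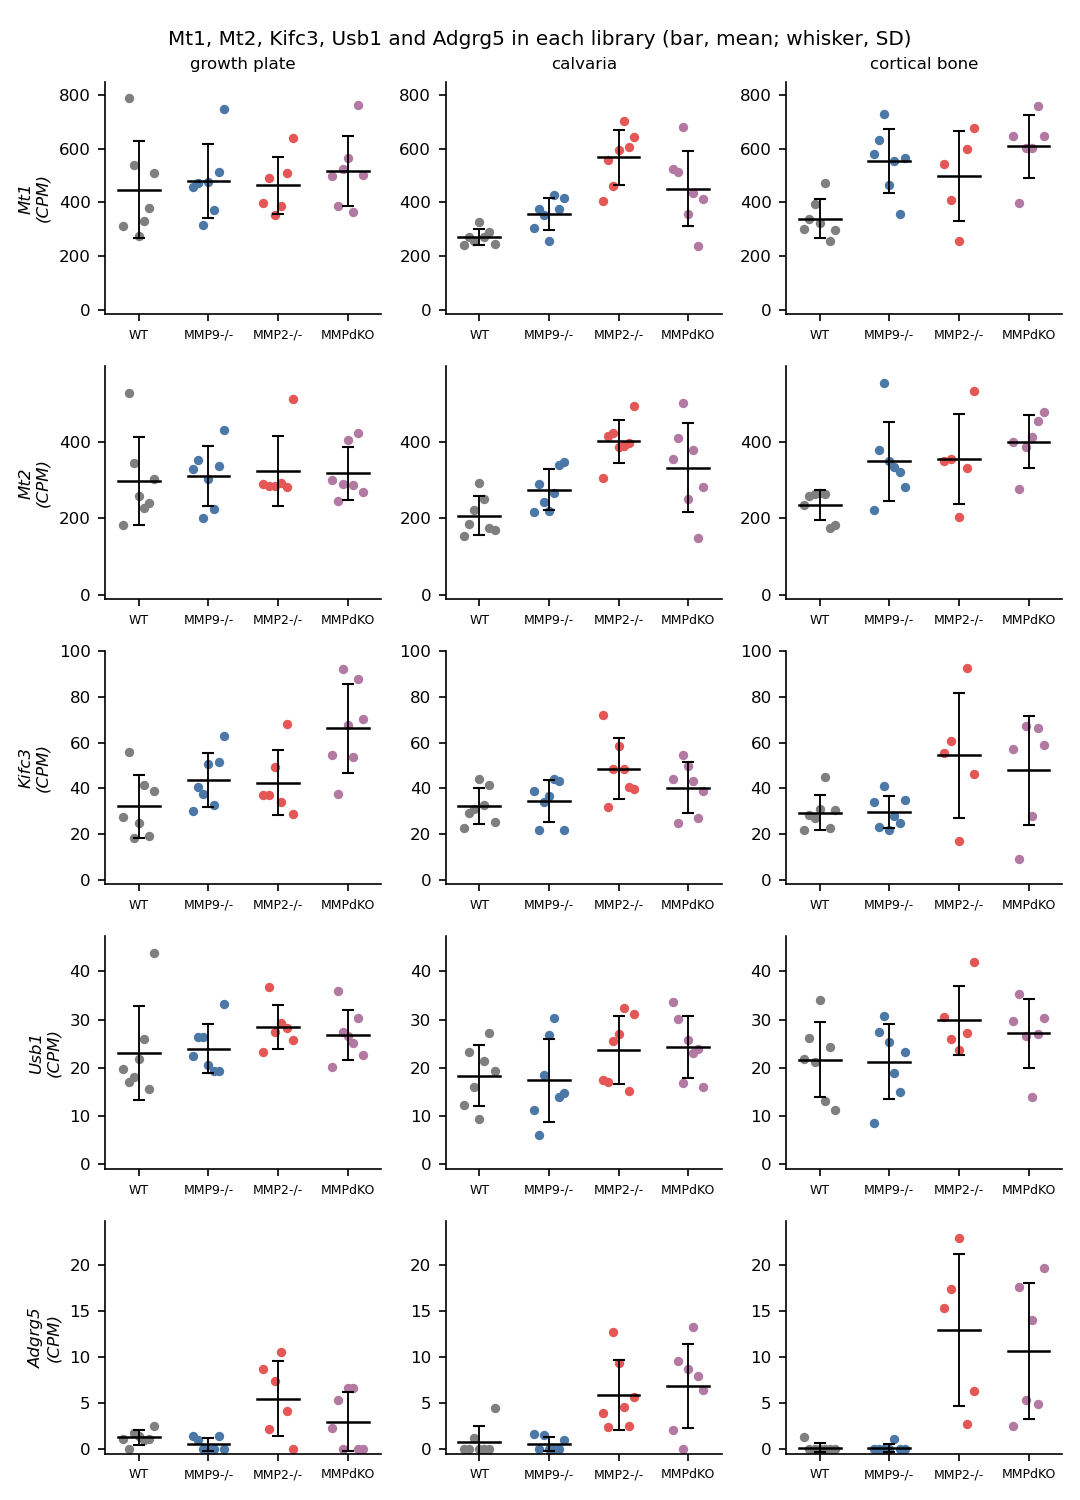
Level (CPM) of Mt1, Mt2, Kifc3, Usb1 and of Adgrg5, a gene of the stretch that is not in the list, in every library by tissue and genotype, with the mean (bar) and SD (whisker). Calvaria Mt1 reached 404 to 702 CPM in MMP2-/- and 243 to 325 CPM in WT libraries. With MMPdKO and MMP9-/- libraries added, calvariae without MMP2 (237 to 702 CPM) and with it (243 to 427 CPM) overlapped. The growth plate groups overlapped as well.

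Within single tissues 5 of 44 neighbours were called in the calvaria (0.103% of all genes), namely Mt1, Mt2 and Ciapin1, higher (0.075% of all genes), and Lpcat2 and Cpne2, lower (0.0281%). In the cortical bone edgeR called 0 of 37 (0.0314% of all genes) and DESeq2 also 0, while 10 of 37 had an unadjusted p under 0.05 (4.54% of all genes). The unadjusted counts were 9 of 41 in the growth plate (7.52% of all genes) and 9 of 44 in the calvaria (7.12%). No neighbour had libraries without MMP2 that were fully separate from those with MMP2. Of all genes, 0.00956%, 0.00938% and 0.0209% did in growth plate, calvaria and cortical bone, which were 1, 1 and 2 genes. They were Mmp2 itself in each tissue and also Adgrg5, a gene of the stretch outside the list, in the cortical bone.

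Calls and small p-values were unevenly placed along the chromosome. Averaged over tissues, 16 of 30 neighbours at higher coordinates (53.3%) and 2 of 14 at lower coordinates (14.3%) had an unadjusted p under 0.05, 18 of 44 together (13.8% of all genes). On the rest of chromosome 8 these were 89 of 571 genes (15.6%), and on the other chromosomes 1452 of 10678 (13.6%). The side at higher coordinates also had the larger share within each tissue. It had 7 of 28 genes in the growth plate, 8 of 30 in the calvaria and 9 of 25 in the cortical bone. Lower coordinates had 2 of 13, 1 of 14 and 1 of 12, and all genes 7.52%, 7.12% and 4.54%. Single comparisons were less even. In MMPdKO against MMP9-/- the share in the growth plate was 4 of 28 at higher and 2 of 13 at lower coordinates (4.65% of all genes). In the average over tissues it was 11 of 30 and 3 of 14 (4.63% of all genes). For the loss of MMP9 the average gave 6 of 30 and 1 of 14 (11.1% of all genes). The growth plate gave 6 of 28 and 0 of 13 (21.3% of all genes). Calvaria (2 of 30 and 2 of 14) and cortical bone (4 of 25 and 4 of 12) had the larger share at lower coordinates. All genes had 12.5% and 8.53% in these 2 tissues. By distance, the loss of MMP2 gave 8 of 28, 9 of 31 and 9 of 26 within 2.5 Mb in growth plate, calvaria and cortical bone. Beyond 2.5 Mb it gave 1 of 13, 0 of 13 and 1 of 11, beside the same 7.52%, 7.12% and 4.54% of all genes. The most distant neighbours all lie at lower coordinates, so that side and distance are mixed. Whether the sides or the distances differ was not tested. These shares are descriptions, since neighbouring genes are not independent of each other.

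**Figure D4:**
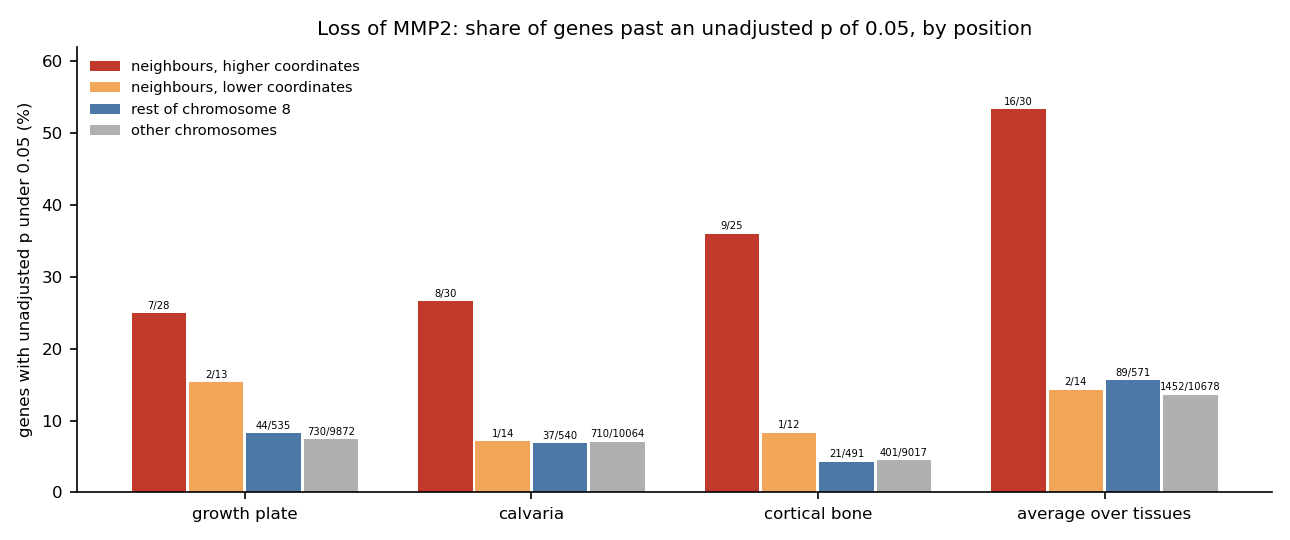
Share of tested genes (%) with an unadjusted p under 0.05 for the loss of MMP2, by position, in each tissue and in the average over tissues, with the number of such genes over the number tested above each bar. In the average, 53.3% of the neighbours at higher coordinates and 13.6% of the genes on other chromosomes were past this threshold.

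The neighbours were also described by role, over the average of tissues, in which 0.292% of all genes tested were called. Of 12 tested genes of transcription and RNA, Usb1 alone was called and the median log2 fold change was -0.17. Among those that did not pass were Chd9, a chromatin remodeller (-0.63, adjusted p = 0.0645), Cnot1 (-0.36, adjusted p = 0.0778) and the pocket protein gene Rbl2 (-0.30, adjusted p = 0.149). Of 6 genes of cilium and cytoskeleton Kifc3 was called, and of 3 metallothioneins Mt1 and Mt2. Of the 9 listed genes of immunity and chemokines 5 were tested and Lpcat2 was called, with Adgrg1, an adhesion G protein-coupled receptor, at -0.30 (adjusted p = 0.106). Of 9 genes of signalling, membrane and matrix Cpne2 was called, and Mmp15, which encodes a metalloproteinase anchored in the membrane, had 0.35 (adjusted p = 0.2). Of 9 genes of metabolism, endoplasmic reticulum and mitochondrion Ciapin1 was called. Coq9, needed for coenzyme Q synthesis, came close to the threshold at 0.32 (adjusted p = 0.0534).

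The most abundant of the neighbours that were not called was Got2, the mitochondrial aspartate aminotransferase, with a mean of 137 CPM over all libraries. Its levels in the growth plate were 125 ± 12.2 CPM (SD, n = 7) in WT, 131 ± 30.4 (n = 6) in MMP2-/-, 119 ± 19.4 (n = 7) in MMP9-/- and 106 ± 14.2 (n = 7) in MMPdKO libraries. Herpud1, a gene of the endoplasmic reticulum stress response, had 114 CPM, Arl2bp, which encodes a partner of the small GTPase ARL2, 102 CPM, Polr2c 84.9 CPM and Coq9 80.9 CPM over all libraries.

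MMP2-/- against WT and MMPdKO against MMP9-/- share no library, so that they give separate readings of the same genes. Averaged over tissues, MMP2-/- against WT called 5 of 44 neighbours (3.62% of all genes), namely Lpcat2 (-1.71, adjusted p = 0.000106), Cpne2 (-0.82, adjusted p = 0.00155), Ciapin1 (0.65, adjusted p = 1.44e-05), Mt1 (0.54, adjusted p = 0.00366) and Mt2 (0.55, adjusted p = 0.00347). MMPdKO against MMP9-/- called 2 of 44 (0.0354% of all genes), Ciapin1 (0.57, adjusted p = 0.000467) and Lpcat2 (-1.40, adjusted p = 0.00537), and 14 of 44 had an unadjusted p under 0.05 (4.63% of all genes). Leaving out 1 mouse kept the Ciapin1 call of that comparison in 33 of 33 fits and the Lpcat2 call in 32. For Mt1 and Mt2 the same comparison gave 0.17 (SE 0.112) and 0.13 (SE 0.114), which did not pass. The interaction, which tests whether the effect differed between both MMP9 backgrounds, called 0 of 44 neighbours in limma (0.0265% of all genes), and 4 had an unadjusted p under 0.05 (8.57% of all genes). It had an unadjusted p of 0.0257 for Mt1 and 0.0121 for Mt2, with log2 differences of -0.37 and -0.42.

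**Figure D5:**
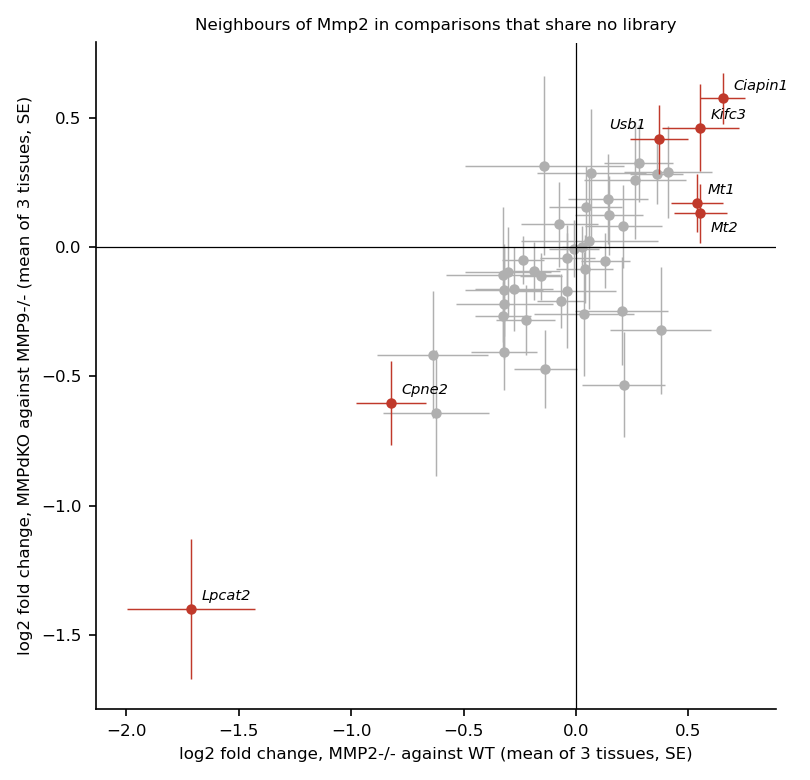
Log2 fold change averaged over tissues (whiskers SE) of each neighbour in MMP2-/- against WT (x) and MMPdKO against MMP9-/- (y), 2 comparisons without a common library. Lpcat2 lay at -1.71 and -1.40 and Ciapin1 at 0.65 and 0.57, whereas Mt1 and Mt2 were at 0.54 and 0.55 on the x axis and at 0.17 and 0.13 on the y axis.

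The sign of the change was the same in both comparisons for 29 of 41 neighbours in the growth plate (70.7%, against 53.2% of all genes), 31 of 44 in the calvaria (70.5%, against 50.9%) and 24 of 37 in the cortical bone (64.9%, against 52.7%). Within tissues, MMP2-/- against WT called 0, 5 and 0 neighbours in growth plate, calvaria and cortical bone (0.0287%, 0.216% and 0.0419% of all genes). The 5 of the calvaria were Mt1 (1.07, adjusted p = 0.000584), Mt2 (0.97, adjusted p = 0.00698), Cpne2 (-1.26, adjusted p = 0.00494), Lpcat2 (-2.11, adjusted p = 0.0384) and Ciapin1 (0.70, adjusted p = 0.0438). Leaving out WT replicate 2, 3 or 5 or MMP2-/- replicate 1, 2, 3 or 5 left 3 of them. In that comparison 2 of 6 erythroid marker genes were also called lower, with a median log2 fold change of -0.68 over the list, and 1 of 2 tested osteoclast markers was called higher, with a median of 0.67. The summed level of the 5 osteoclast markers was 3120 to 8151 CPM in the 14 calvaria libraries without MMP2 and 3230 to 6221 CPM in the others. That of the erythroid list was 61020 to 172433 CPM without and 93431 to 172933 CPM with MMP2. No marker of either list was at 0. The 5 neighbours were still called with haemoglobin genes left out of the counts, which keeps the other transcripts of erythroid cells in. The part of erythroid cells and of osteoclasts in these calls was not tested. Fewer cells of a type and less RNA per cell cannot be told apart in such tissue samples. MMPdKO against MMP9-/- called 0 neighbours in each tissue in edgeR and in DESeq2, while 6 of 41, 4 of 44 and 6 of 37 had an unadjusted p under 0.05 (4.65%, 3.7% and 2.66% of all genes).

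The loss of MMP9, averaged over both MMP2 backgrounds, was used as a comparison in which the Mmp2 allele is balanced. In the average over tissues limma called 0 of 44 neighbours (0.15% of all genes), and 7 of 44 had an unadjusted p under 0.05 (11.1% of all genes). In the growth plate Mmp15 was called, at 0.87 (SE 0.157, adjusted p = 0.00326), where 3.8% of all genes were. Its levels there were 15 ± 3.11 CPM (SD, n = 7) in WT, 21.9 ± 6.78 (n = 6) in MMP2-/-, 27.9 ± 7.85 (n = 7) in MMP9-/- and 40.1 ± 9.40 (n = 7) in MMPdKO libraries. The highest WT library had 17.8 CPM and the lowest MMP9-/- library 17.9 CPM. The MMP2-/- mean lay above that lowest MMP9-/- library, so that libraries with and without MMP9 overlapped. Leaving out WT replicate 2 or MMP9-/- replicate 6 gave 2 called neighbours in that comparison, and leaving out MMP2-/- replicate 5 or MMPdKO replicate 2 gave 3. Calvaria and cortical bone had 0 called neighbours for the loss of MMP9 in edgeR and in DESeq2 (0.244% and 0.0105% of all genes). Unadjusted p-values under 0.05 stood at 6 of 41 neighbours in the growth plate, 4 of 44 in the calvaria and 8 of 37 in the cortical bone (21.3%, 12.5% and 8.53% of all genes).

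Outside the list, 25 further genes between Cnep1r1 and Got2 had a row in the table. Of these, 12, 11 and 8 were tested in growth plate, calvaria and cortical bone. In the average over tissues, the loss of MMP2 called 1 of 13 tested (0.292% of all genes), and 5 had an unadjusted p under 0.05 (13.8% of all genes). The only gene of them called in a tissue or in the average was Adgrg5, an adhesion G protein-coupled receptor gene 2.0703 Mb from Mmp2. In the cortical bone all 11 libraries without MMP2 held counts of it, 80 in total, and only 2 of 14 libraries with MMP2 did, with 1 count each. The groups did not overlap there, at 2.48 to 22.9 CPM against 0 to 1.37 CPM. The ratio of the rates was 62.9, with a 95% counting interval of 16.9 to 529 that covers counting error alone. In the calvaria 13 of 14 libraries without MMP2 and 5 of 14 with it held a count (77 and 9 counts, ratio 8.98, interval 4.49 to 20.4). In the growth plate the sums were 48 and 10 counts (ratio 6.65, interval 3.32 to 14.8), too few for the test. Adgrg5 rose, with a fitted log2 fold change of 4.90 (SE 0.537, adjusted p = 2.64e-06) for cortical bones and of 2.87 (SE 0.496, adjusted p = 0.00247) for calvariae. It reached 15 counts in only 1 library of each of these tissues, both without MMP2. They were cortical bone MMP2-/- replicate 3 (27 counts) and calvaria MMPdKO replicate 4 (16 counts). Libraries with MMP2 held at most 1 and 3 counts, so that it too was tested through the group where it is high. With 1 library left out at a time, 24 cortical bone and 27 calvaria fits still tested it, and all of these called it. Both calls were kept without the minimum of 15 counts. At such low counts the fitted fold change depends on the prior count. In the cortical bone it was called in both comparisons that share no library (adjusted p = 0.000485 for MMP2-/- against WT and 0.0102 for MMPdKO against MMP9-/-).

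Across all chromosomes, MMPdKO against MMP9-/- averaged over tissues called 3 genes besides Mmp2, and all 3 lay in the stretch (Lpcat2, Ciapin1 and Adgrg5). MMP2-/- against WT called 408 genes besides Mmp2, of which 6 lay in the stretch, 23 elsewhere on chromosome 8 and 379 on other chromosomes. For the loss of MMP2 over both backgrounds the numbers were 8 of 32 in the stretch, 1 on the rest of chromosome 8 and 23 on other chromosomes.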

How the data were processed

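Raw counts of 14688 genes in 80 libraries were used as the authors deposited them. Libraries were made with a bulk form of MARS-seq from 30 ng of RNA, which tags transcript 3′ ends, so levels are not scaled by length. Per the labels and the methods, cutadapt trimmed the reads, STAR 2.7.3a (EndToEnd) aligned them to GRCm38, and they were counted with htseq-count on Ensembl annotation. Whether molecular barcodes were collapsed or strand was used is not given in the sources used here. The deposited normalized counts and the authors' own comparisons were not used.

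Counts were tested per tissue with edgeR 4.0.16 (TMM, quasi-likelihood, 4 genotypes, R 4.3.3). Effects over tissues were fitted with limma 3.58.1 (voom, mouse as random effect, correlation 0.0130). Genes needed 15 counts in at least 1 library. CPM use TMM-scaled totals. Positions came from GENCODE for GRCm38, which matched 14678 IDs, and promoters from RefSeq (GRCm38.p6). The edgeR fit, and a voom fit without the mouse effect, were tried on simulated calvaria counts. The fit over tissues was not tried in this way. Mice of a genotype are separate animals, and the 80 columns showed 0 identical pairs.

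The list, its roles and the tests were chosen with earlier results of these data known. Genes named are Mmp2, each neighbour called for the loss of MMP2 in a tissue or in the average, the 6 most abundant others, untested ones and called genes of the stretch outside the list. Chd9, Cnot1, Rbl2, Adgrg1 and Mmp15 do not meet this rule and were picked with their values in view. Alternatives were DESeq2 1.42.0, other normalizations and filters, covariates, replicate blocks and libraries left out. Leaving out each mouse, with the correlation held fixed, the shallowest library or 5 WT libraries whose descriptions carry 20 in place of 21 (meaning not given) was added after seeing the data.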

Additional observations from a re-analysis of the deposited data

Results flagged for a closer look

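Among 168 groups of libraries of 14 named genes, 15 (8.93%) held a library whose gap to the nearest other was large for the range of its group, where chance gives about 1 in 20. In MMP2-/- growth plates, replicate 6 was highest for Mt2 (512 CPM, nearest 293) and Herpud1 (158, nearest 113), and replicate 5 for Mt3 (102, nearest 48.9). Other high growth plate libraries were WT replicate 7 for Usb1 (43.8, nearest 26.0) and MMP9-/- replicate 7 for Mt3 (244, nearest 124), and MMPdKO replicate 3 was low for Polr2c (39.8, nearest 74.7). In the calvaria MMPdKO replicate 1 was high for Herpud1 (173, nearest 119), WT replicate 1 low for Arl2bp (64.6, nearest 91.0) and WT replicate 7 high for Adgrg5 (4.47, nearest 1.23). In the cortical bone WT replicate 5 was high for Kifc3 (44.8, nearest 30.7), MMPdKO replicate 5 for Arl2bp (148, nearest 109) and WT replicate 1 for Polr2c (115, nearest 93.9). MMP9-/- replicate 1, the shallowest library, was at 0 CPM for Cpne2 (nearest 26.1). The single counts of Adgrg5 in cortical bone WT replicate 1 (1.37 CPM) and MMP9-/- replicate 5 (1.11 CPM) stood against 0 in the rest of their groups.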

How the results depend on the processing

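Called neighbours for the loss of MMP2 in the growth plate changed from 1 to 0 without a filter on low counts, with a replicate block and with a muscle score as covariate. MMP2-/- against WT there changed from 0 to 1 with a neutrophil score as covariate and with all 80 libraries in 1 fit. The loss of MMP9 there changed from 1 to 2 with DESeq2 and to 0 with the neutrophil score. In the calvaria, MMP2-/- against WT changed from 5 to 3 with only the groups compared, with the replicate block and with the muscle score, and the loss of MMP2 from 5 to 2 with the replicate block (adjusted p of 0.0608 for Lpcat2, 0.0645 for Cpne2 and 0.0850 for Mt2, over alternatives 0.00032 to 0.0608, 0.00288 to 0.0645 and 0.00521 to 0.0850). The Mt2 call there was also lost without a filter on low counts, with the muscle score, with the neutrophil score and without the WT libraries that carry 20, so that 5 of 10 alternatives kept it. A fold change of at least 1.5 as a further criterion left 3 of 7 in the average over tissues. The cause of these changes was not tested. Leaving out 1 library at a time gave 0 to 1 neighbours for the loss of MMP2 and 1 to 3 for the loss of MMP9 in the growth plate, and 4 to 5 for the loss of MMP2 and 3 to 5 for MMP2-/- against WT in the calvaria. Leaving out 1 mouse gave 3 to 10 in the average. No value of a named gene changed direction past its threshold. Replicate numbers join different mice across genotypes: deviations of same-numbered libraries correlated at -0.0198, -0.0390 and -0.003 on average in the 3 tissues, and 3 of 27, 3 of 28 and 1 of 25 libraries correlated best with their own number. Without the WT libraries that carry 20, Mt2 had an adjusted p of 0.0686 in the average (0.0107 to 0.103 with each mouse left out). Most neighbours had under 100 counts in any library, which limits what small changes can be seen.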
